A study of Mus musculus with 16 samples.

Results

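Genes of the axonal cytoskeleton and of the synapse were followed in the corpus callosum of mice through demyelination and remyelination. A list of 10 neuron genes was set by name, with no measured value in the rule. It comprised the neurofilament subunits Nefl, Nefm, Nefh and Ina, the tubulin Tubb3, the synaptic proteins Snap25 and Syt1, and the axonal proteins Stmn2, Gap43 and Uchl1. Every probe whose accession matched one of these genes was taken. This gave 14 probes for 9 of the 10 genes, out of 18745 named genes on the array, and Ina was not analysed here because no probe was matched to it. Syt1 had 5 probes, Nefh had 2, and the other 7 genes had 1 each. All 14 probes were well above background on all 16 arrays, and 0 were saturated on any array.

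Neurons carry most of their messenger RNA in the cell body, from which proteins travel along the axon. Neurofilaments and tubulin form the axon's inner scaffold, and the synaptic proteins drive the release of transmitter from vesicles at the axon's end. The corpus callosum is a tract of axons that connects the cerebral hemispheres. It is rich in oligodendrocytes and other glia, while the cell bodies of its axons lie mostly in the cortex.

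The arrays measured RNA of the corpus callosum of male C57BL/6 mice, which entered the experiments at an age of 7 to 8 weeks. Untreated mice had the age of the 4-week CPZ group, and no age match is stated for the other groups. Cuprizone (CPZ), a copper chelator that kills oligodendrocytes, was mixed into powdered chow. The groups were 3 untreated controls on normal diet, 3 samples fed CPZ for 2 weeks, 4 fed it for 4 weeks and 6 remyelination samples, from mice returned to regular diet after 4 weeks of CPZ. The labels give 0.2 to 0.4% CPZ in the chow. Remyelination covers 2 durations of regular diet, which the labels do not separate, so the spread of these 6 arrays is not replicate spread alone. All groups were wild type. The labels number the arrays of a group as replicates and the methods give a range of mice per condition that fits these numbers of arrays. No source used here ties an array to a mouse, and p-values measure the spread between these samples. The tissue was cut from brain sections, in which cortex lies above the tract.

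Each level below is the log2 signal of a probe relative to the 75th percentile of its array, and a difference of 1 on this scale is a 2-fold change. A level says nothing about the amount of one gene relative to another, since probes differ in brightness. The 75th percentile itself lay between 159.2 and 357.5 signal units, and 57.3 to 72.2% of probes were well above background. The scanner files and the authors' processed table disagreed for 14 of the 16 samples on which array belonged to which sample. The arrays were assigned through the processed table, where each column had r = 1.0 (Pearson, over 21974 probes well above background on all arrays) with 1 scanner file and at most 0.89 with any other. The number ending the name of each scanned array also equalled its column number, for 16 of the 16 arrays. If the recorded assignment is used instead, the direction of several comparisons below turns, as stated beside them. By limma, 176 of 13852 named genes then stood at an unadjusted p under 0.05 after 2 weeks of CPZ, against 1572 of 13877. The median log2 fold change of the myelin and oligodendrocyte genes was then 1.16 after 2 weeks and 0.55 after 4 weeks of CPZ. Myelin genes marked the tissue and the treatment: 14 of 15 listed genes of myelin and oligodendrocytes were tested, with a median log2 fold change of -3.26 after 2 weeks and -2.70 after 4 weeks of CPZ, and 13 and 12 of them lower at an unadjusted p under 0.05, against 6.13% and 4.94% of all named genes. Markers of the neurons of neighbouring regions were above background too: 19 of 20 cortical glutamatergic, 13 of 13 inhibitory, 13 of 16 striatal and 9 of 10 hippocampal neuron genes were tested, as were 13877 of all 18745 named genes.

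The plot of levels shows each of the 9 measured genes on every array.

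**Figure D1:**
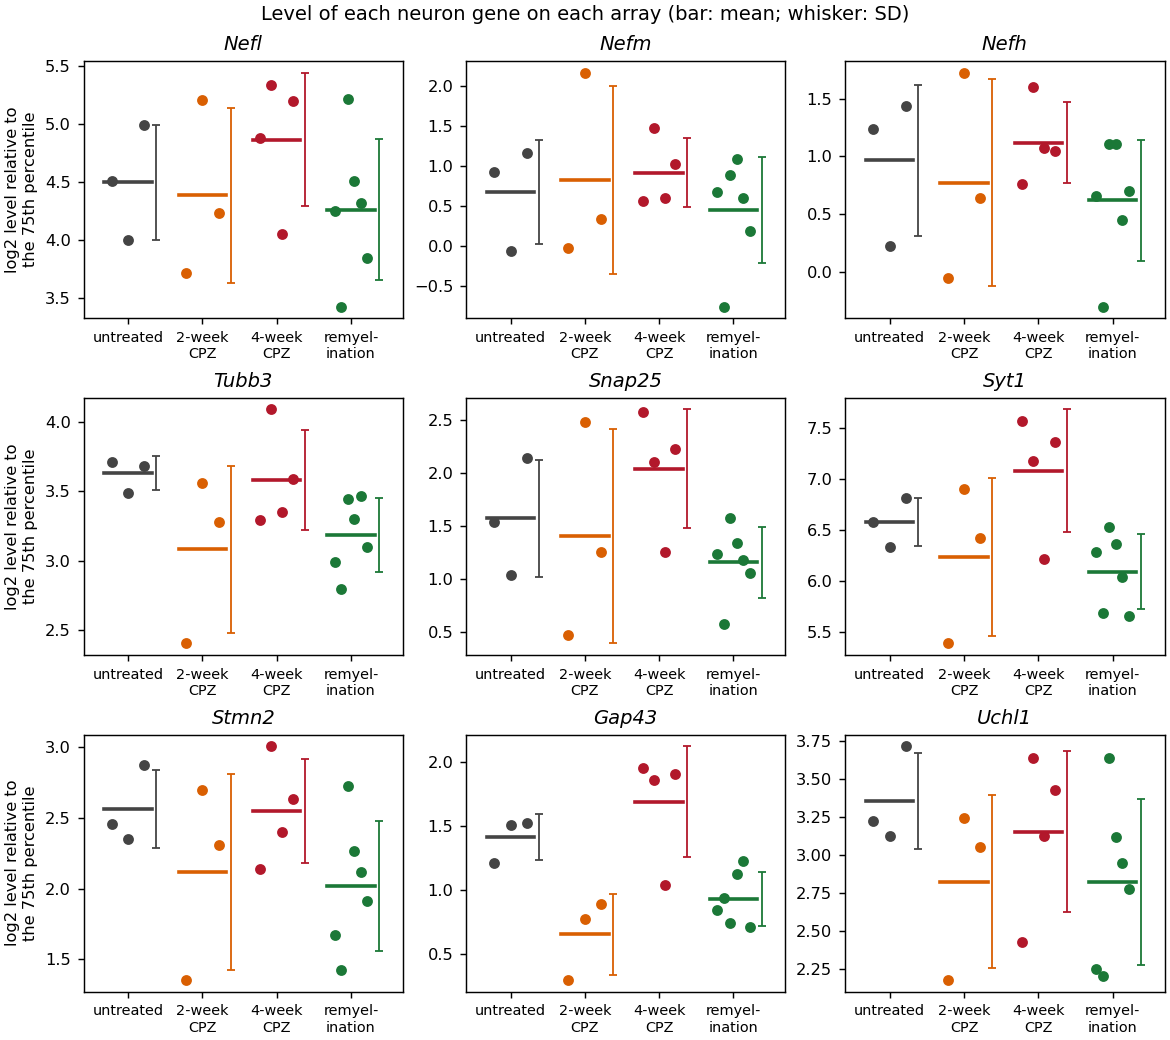
Log2 level relative to the array's 75th percentile (vertical axis) of the 9 measured neuron genes, each by its brightest probe, on 3 untreated, 3 2-week CPZ, 4 4-week CPZ and 6 remyelination arrays (points). Horizontal bars are group means and whiskers are 1 SD. For Gap43, the 2-week arrays lie between 0.29 and 0.89, below the untreated arrays at 1.21 to 1.52, and for the other genes the 2-week and untreated groups overlap.

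Nefl encodes the light neurofilament subunit, the core of the filament. Its level was 4.50, 4.00 and 4.99 on the untreated arrays, and 3.72, 5.20 and 4.23 after 2 weeks of CPZ. On the 4-week arrays it was 4.88, 5.33, 4.05 and 5.20, and the remyelination arrays ranged from 3.43 to 5.21 with a median of 4.29. The groups overlapped throughout, and each of them held both an array near 4 or below and an array near 5. Nefm encodes the medium subunit. Its level was 0.92, -0.06 and 1.17 on the untreated arrays and -0.02, 2.17 and 0.33 after 2 weeks of CPZ. It was 0.57, 1.48, 0.61 and 1.03 after 4 weeks, and -0.76 to 1.09 with a median of 0.64 in remyelination. The second 2-week array was the highest of all 16 and the second remyelination array the lowest. Nefh encodes the heavy subunit, whose phosphorylated tail spaces the filaments in large axons. Its brightest probe was at 1.23, 0.22 and 1.44 in untreated mice and at -0.06, 1.72 and 0.64 after 2 weeks of CPZ. It was at 0.76, 1.60, 1.07 and 1.04 after 4 weeks, and at -0.30 to 1.11 with a median of 0.68 in remyelination. Its highest and lowest arrays were the same 2 as for Nefm.

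Tubb3 encodes the tubulin isotype that neurons use in their microtubules. Its level was 3.71, 3.49 and 3.69 on the untreated arrays and 2.40, 3.56 and 3.28 after 2 weeks of CPZ. It was 3.29, 4.09, 3.35 and 3.59 after 4 weeks, and 2.80 to 3.46 with a median of 3.20 in remyelination. All 6 remyelination arrays lay below all 3 untreated arrays, which were the tightest group of this gene (SD 0.12, n = 3). A gap of this kind was found for 4.09% of all named genes tested, and Tubb3 was the only one of the 9 genes to show it in that comparison.

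Snap25 and Syt1 act in transmitter release, Snap25 as a part of the complex that fuses vesicles with the membrane and Syt1 as the calcium sensor on the vesicle. Snap25 was at 1.54, 1.04 and 2.14 on the untreated arrays and at 0.48, 2.48 and 1.26 after 2 weeks of CPZ. It was at 2.57, 2.10, 1.26 and 2.23 after 4 weeks, and at 0.57 to 1.58 with a median of 1.21 in remyelination. Of the 4-week arrays, 3 lay above all 6 remyelination arrays, and the third lay among them. Syt1 was at 6.58, 6.34 and 6.81 on the untreated arrays and at 5.39, 6.90 and 6.42 after 2 weeks of CPZ. It was at 7.57, 7.18, 6.21 and 7.37 after 4 weeks, and at 5.65 to 6.53 with a median of 6.16 in remyelination. As for Snap25, the third 4-week array stood with the remyelination arrays and the other 3 above them, here also above all untreated arrays.

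Stmn2 encodes a stathmin that binds tubulin in growing and injured axons. Its level was 2.46, 2.35 and 2.87 on the untreated arrays and 1.35, 2.69 and 2.31 after 2 weeks of CPZ. It was 2.14, 3.00, 2.40 and 2.63 after 4 weeks, and 1.43 to 2.72 with a median of 2.01 in remyelination. In remyelination 5 of 6 arrays lay below the lowest untreated array, and the third was the exception. Uchl1 encodes a ubiquitin hydrolase that is abundant in neurons. Its level was 3.23, 3.13 and 3.72 on the untreated arrays and 2.18, 3.25 and 3.05 after 2 weeks of CPZ. It was 2.43, 3.64, 3.12 and 3.43 after 4 weeks, and 2.20 to 3.64 with a median of 2.86 in remyelination. Within these groups, Uchl1 and Stmn2 had the same lowest arrays: the first after 2 weeks, the first after 4 weeks, and the first and the second of remyelination.

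Gap43 encodes a growth cone protein that neurons make when axons grow or sprout. Its level was 1.21, 1.50 and 1.52 on the untreated arrays and 0.29, 0.77 and 0.89 after 2 weeks of CPZ. It was 1.95, 1.86, 1.04 and 1.91 after 4 weeks, and 0.70 to 1.22 with a median of 0.89 in remyelination. All 3 arrays after 2 weeks of CPZ lay below all untreated arrays, a gap shown by 10.3% of all named genes in that comparison and by no other of the 9 genes. After 4 weeks, 3 of 4 arrays lay above all untreated arrays, and the third lay below them all.

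After 2 weeks of CPZ, 8 of the 9 genes had a lower mean than in untreated mice, and Nefm a higher one. The median log2 fold change of the 9 was -0.34, against -0.02 over all 13877 named genes tested, of which 52.6% were lower. A gene was called where limma gave a p under 0.05 after Benjamini-Hochberg adjustment over all probes tested, together with a 2-fold change or more. This held for 0 of the 9 genes and for 0.238% of all named genes. At an unadjusted p under 0.05 it was 1 gene, Gap43, lower, against a background of 11.3% in either direction and 6.13% lower. By the test of the methods, 0 were called, and 1 had a Tukey p under 0.05, as did 532 of 13981 named genes. The Tukey p is adjusted over the pairs of groups but not over probes. Gap43 had the largest difference of the 9, a log2 fold change of -0.76 (standard error 0.28, adjusted p = 0.389), a 1.69-fold lower level. Tubb3 (-0.55, standard error 0.32), Uchl1 (-0.53, standard error 0.38) and Stmn2 (-0.44, standard error 0.36) followed, with adjusted p between 0.759 and 0.893. Syt1 stood at -0.34 and Snap25 at -0.17, with standard errors of 0.44 and 0.53. Of the neurofilament genes, Nefh stood at -0.19, Nefl at -0.11 and Nefm at 0.15, with standard errors of 0.46 to 0.57. One array carried much of the direction: without the first 2-week array, 4 genes were lower and 5 higher, with a median of 0.09, and without the third untreated array it was 5 lower and 4 higher. Without the second or the third untreated array or the first 2-week array, 0 genes stood at an unadjusted p under 0.05, and without the second 2-week array 2 did, with a median of -0.71. On the 1 slide that held both groups, all 9 genes were lower after 2 weeks of CPZ, by a median of -0.67. Under the recorded assignment 7 genes were higher, with a median of 0.15.

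After 4 weeks of CPZ, 6 of the 9 genes had a higher mean than in untreated mice, and Tubb3, Stmn2 and Uchl1 a lower one. The median log2 fold change was 0.24, against 0.03 over all named genes, of which 46.5% were lower. By limma, 0 of the 9 genes were called, against 0.202% of all named genes, and 0 stood at an unadjusted p under 0.05, against 11.2%. The test of the methods also called 0, with 0 at a Tukey p under 0.05, against 520 of 13981 named genes. Both synaptic genes had the largest differences, Syt1 with a log2 fold change of 0.50 (standard error 0.41, adjusted p = 0.795) and Snap25 with 0.47 (standard error 0.49, adjusted p = 0.846). Nefl stood at 0.37 (standard error 0.43), Gap43 at 0.28 (0.26), Nefm at 0.24 (0.53) and Nefh at 0.15 (0.44). Stmn2 at -0.01 and Tubb3 at -0.05 were within 0.1 of the untreated mean, and Uchl1 stood at -0.20, with standard errors of 0.34, 0.30 and 0.35. The direction did not hold once slides were taken into account: with the slide as a fixed block, 7 genes were lower, with a median of -0.27, and as a random block the median was -0.02. Within the slides that held both groups, the median was 0.05 on one and -0.39 on the other, each with 1 array per group. Without the second untreated array the median was -0.12, without the second 4-week array it was 0.06, and without the first 4-week array all 9 genes were higher, with a median of 0.27. Without the third 4-week array, 1 gene stood at an unadjusted p under 0.05. Under the recorded assignment 7 genes were higher, with a median of 0.15.

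In remyelination, all 9 genes had a lower mean than in untreated mice. The log2 fold changes lay between -0.54 and -0.23 with a median of -0.45, against -0.07 over all 13981 named genes tested on the 16 arrays, of which 59.2% were lower. By limma, 0 of the 9 genes were called, against 1.07% of all named genes. At an unadjusted p under 0.05 it was again 1 gene, Gap43, lower, against 12.3% in either direction and 5.02% lower. By the test of the methods 0 were called, and 0 had a Tukey p under 0.05, against 654 of 13981 named genes. Stmn2 and Uchl1 each had a log2 fold change of -0.54 (standard errors 0.31 and 0.35, adjusted p = 0.541 and 0.568). Syt1 stood at -0.49 (standard error 0.34, adjusted p = 0.589), Gap43 at -0.48 (0.21, adjusted p = 0.443), Tubb3 at -0.45 (0.25, adjusted p = 0.524) and Snap25 at -0.42 (0.39, adjusted p = 0.653). The neurofilament genes were the nearest to the untreated level, Nefh at -0.35, Nefl at -0.24 and Nefm at -0.23, with standard errors of 0.39 to 0.48. Leaving out any 1 array kept between 7 and 9 genes lower. The unadjusted p of Gap43 was above 0.05 when the second or the third untreated array, or the first, the second or the sixth remyelination array, was left out, and 2 genes stood below it without the first 2-week array. Within the 3 slides that held both groups, 7, 9 and 9 genes were lower, by medians of -0.13, -0.54 and -0.70. With the slide as a fixed block, 5 genes stood at an unadjusted p under 0.05, all lower, against 10.1% of all named genes lower in that fit, and 0 were called, against 1.24%. Under the recorded assignment the sign of all 9 genes turned, with a median of 0.55.

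Remyelination was also set against 4 weeks of CPZ. All 9 genes were lower, by a median of -0.53 and between -0.99 and -0.33, against -0.05 over all named genes, of which 55.8% were lower. By limma 0 of the 9 genes were called, as were 0% of all named genes in this comparison. At an unadjusted p under 0.05 it was 3 genes, Gap43, Snap25 and Syt1, all lower, against a background of 19.7% in either direction and 13.1% lower. By the test of the methods 0 were called, and 2 had a Tukey p under 0.05, against 1103 of 13981 named genes. Syt1 had the largest difference, -0.99 (standard error 0.31, adjusted p = 0.108), a 1.99-fold lower level. Snap25 stood at -0.88 (standard error 0.36, adjusted p = 0.158) and Gap43, with the smallest spread, at -0.76 (standard error 0.20, adjusted p = 0.0886). Nefl (-0.60), Stmn2 (-0.53), Nefh (-0.50), Nefm (-0.47), Tubb3 (-0.40) and Uchl1 (-0.33) had standard errors of 0.23 to 0.44 and adjusted p between 0.261 and 0.520. With median scaling, limma called Gap43 (-1.06), Snap25 (-1.18) and Syt1 (-1.29) in this comparison, where it called 2.52% of all named genes as lower. Median scaling put the median of all named genes at -0.18, 0.15, -0.26 and -0.35 in the 4 comparisons in the order given here, and that of the 9 genes at -0.82 in this one. With 75th percentile scaling and without the third 4-week array, limma called Syt1 (-1.28, adjusted p = 0.0387), and 0.873% of all named genes as lower. At an unadjusted p under 0.05, it was 2 genes without the first, the second or the fourth 4-week array or the second remyelination array, and 5 without the third remyelination array. Within the 3 slides with both groups, 9, 7 and 8 genes were lower, by medians of -0.55, -0.25 and -0.36. A fixed slide block gave a median of -0.27, with all 9 genes lower, 3 of them at an unadjusted p under 0.05, and 0 were called. In that fit 1465 of 13981 named genes were lower at that p. Under the recorded assignment all 9 were higher, with a median of 0.70. The 3 comparisons with untreated mice share their controls and the 2 comparisons with the 4-week group share that group, so their directions are not separate observations. In bulk tissue, RNA of fewer neurons and less RNA per neuron cannot be told apart.

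**Figure D2:**
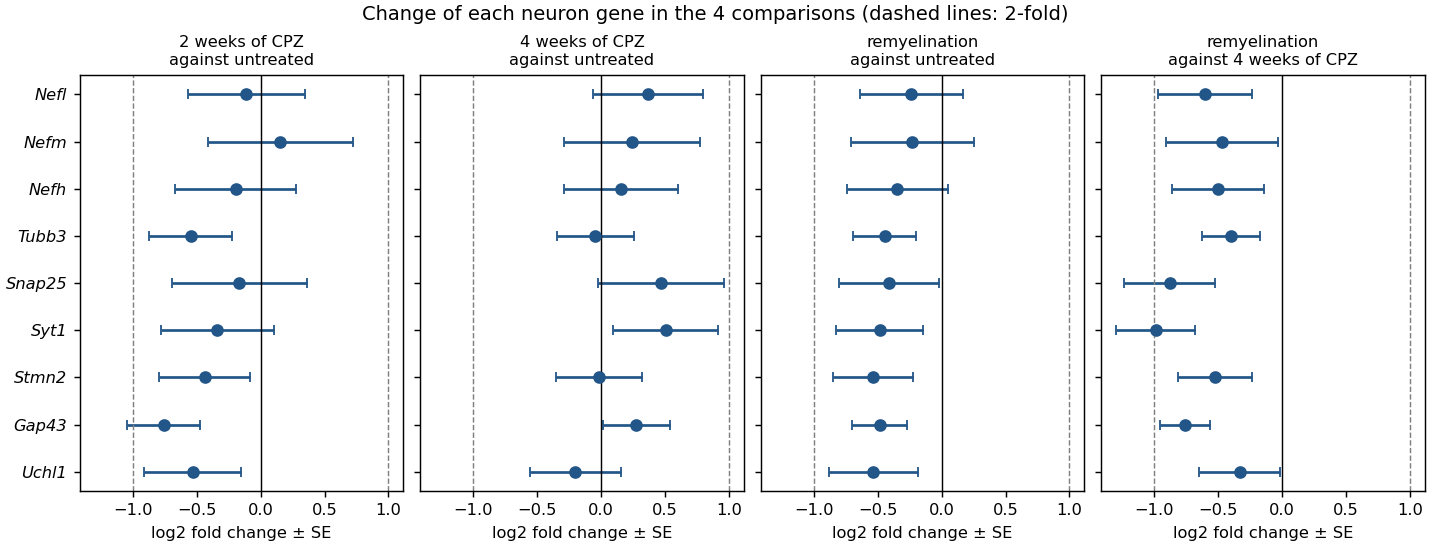
Log2 fold change of the 9 neuron genes (horizontal axis, points) with its standard error (whiskers) in the 4 comparisons, from limma, with dashed lines at 2-fold. No gene was called, and in both comparisons of remyelination all 9 points lie left of 0, between -0.54 and -0.23 against untreated mice and between -0.99 and -0.33 against 4 weeks of CPZ.

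By mean level, 4 weeks of CPZ was the highest group for Nefl, Nefm, Nefh, Snap25, Syt1 and Gap43, and untreated mice were the highest for Tubb3, Stmn2 and Uchl1. Remyelination was the lowest group for Nefl, Nefm, Nefh, Snap25, Syt1 and Stmn2, and 2 weeks of CPZ was the lowest for Tubb3 and Gap43. Uchl1 stood at 2.82 in both of these groups, with SDs of 0.57 (n = 3) and 0.55 (n = 6). For Syt1 the order was 7.08 ± 0.60 after 4 weeks of CPZ (SD, n = 4), 6.58 ± 0.24 in untreated mice (n = 3), 6.24 ± 0.77 after 2 weeks (n = 3) and 6.09 ± 0.37 in remyelination (n = 6). For Gap43 it was 1.69 ± 0.43 after 4 weeks, 1.41 ± 0.18 in untreated mice, 0.93 ± 0.21 in remyelination and 0.65 ± 0.32 after 2 weeks. For Tubb3 it was 3.63 ± 0.12 in untreated mice, 3.58 ± 0.36 after 4 weeks, 3.18 ± 0.27 in remyelination and 3.08 ± 0.61 after 2 weeks. No tested pair of groups passed the adjusted threshold for any of the 9 genes. The 2-week group was not tested against the 4-week or the remyelination group.

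The arrays of a group differed from each other more in these genes than in most. The SD within groups, pooled over the 4 groups, had a median of 0.51 for the 9 genes and of 0.35 over all named genes tested. It was above the latter for 8 of 9 genes. Nefm had the widest spread, 0.73, and 89.7% of all named genes had a smaller one. Nefl, Nefh and Snap25 followed, with 82.5 to 83.8% of genes below them. Tubb3 was near the middle, with 51.0%, and Gap43 below it, with an SD of 0.30 and 37.2%.

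The genes moved together from array to array. Across the 16 arrays, the deviations from the group means gave 36 pairs of genes with a median Pearson's r of 0.75, between 0.11 and 0.96. These points share 4 slides and 1 scaling per array, and r is given as a description. Stmn2 and Uchl1 (0.96) and Nefm and Nefh (0.95) were the closest pairs. Gap43 stood apart, with a median r of 0.38 with the other 8 genes. The mean of the 9 genes on an array, relative to the untreated mean, was -1.06, 0.39 and -0.32 on the 2-week arrays and 0.10, 0.56, -0.24 and 0.35 on the 4-week arrays. It was 0.02, -0.36 and 0.35 on the untreated arrays, and -1.03 to 0.07 with a median of -0.41 in remyelination. All 9 genes were below the untreated mean on the first and the third 2-week arrays and on the second, the fifth and the sixth remyelination arrays. All 9 were above it on the third untreated and the second 4-week array. The group means of this value were -0.33 ± 0.72 after 2 weeks (SD, n = 3), 0.19 ± 0.34 after 4 weeks (n = 4) and -0.41 ± 0.39 in remyelination (n = 6), beside an SD of 0.35 in untreated mice (n = 3). In each of these 3 groups the SD between arrays was close to or above the size of the difference from untreated mice.

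The first 2-week array and the second remyelination array were the lowest of all 16. Neither was an extreme in quality, with a 75th percentile of 231.1 and 203.5 signal units and 69.7 and 64.9% of probes well above background. On the first 2-week array the medians of the other neuron gene lists stood at -0.82 to -1.15, and on the second remyelination array at -0.95 to -1.06. The cortical glutamatergic neuron list stood at -1.17 and -0.92 on these 2 arrays, and the inhibitory neuron list at -1.09 and -1.07. Slc17a7, the vesicular glutamate transporter of cortical neurons, stood at -1.78 and -1.54, and Gad1, which makes the transmitter GABA, at -0.90 and -0.46. The striatal neuron list stood at -1.26 and -0.27, and Ppp1r1b, a marker of striatal projection neurons, at -1.13 and -0.62. The hippocampal neuron list went 2 ways, with 0.47 on the first 2-week array and -1.49 on the second remyelination array. Mog, a myelin protein, stood at -2.47 and -4.60 on the same arrays, and the microglia list at 1.14 and 4.35. Ttr, the transport protein made by the choroid plexus, ranged from -3.22 to 3.89 over all arrays and stood at 1.25 and -1.02 on these. How much tissue of neighbouring regions each sample held was not measured, and its part in the differences was not tested.

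Lists of region markers were followed in the same comparisons. The cortical glutamatergic list, with 19 tested genes, had a median log2 fold change of -0.32 after 2 weeks of CPZ, 0.08 after 4 weeks, -0.52 in remyelination against untreated mice and -0.42 in remyelination against 4 weeks of CPZ. The inhibitory list, with 13 tested genes, had -0.29, 0.05, -0.40 and -0.58 in the same order. These signs, and those of the hippocampal list given below, are those of the medians of the 9 genes in each comparison. Without the first 2-week array the 2-week medians of the cortical and the inhibitory list were -0.02 and -0.03, and the 4-week medians were -0.30 and -0.36 with the slide as a fixed block. The cortical list had, under the recorded assignment, 0.16, 0.24, 0.48 and 0.18 and the inhibitory list -0.02, 0.10, 0.21 and 0.23. The striatal list had -0.80, -0.58, -0.16 and 0.33, and the hippocampal list -0.13, 0.54, -0.57 and -1.04. Under the recorded assignment the striatal list, then with 14 tested genes, had -0.23, 0.32, -0.10 and -0.42. The hippocampal list then had -0.36, -0.65, -0.17 and 0.89. Of Slc17a7, Gad1 and Ppp1r1b, limma called 0 in any comparison, and Gad1 alone stood at an unadjusted p under 0.05, in remyelination against 4 weeks of CPZ (-0.84, standard error 0.21, adjusted p = 0.0864). The part of these markers in the differences of the 9 genes was not tested.

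**Figure D3:**
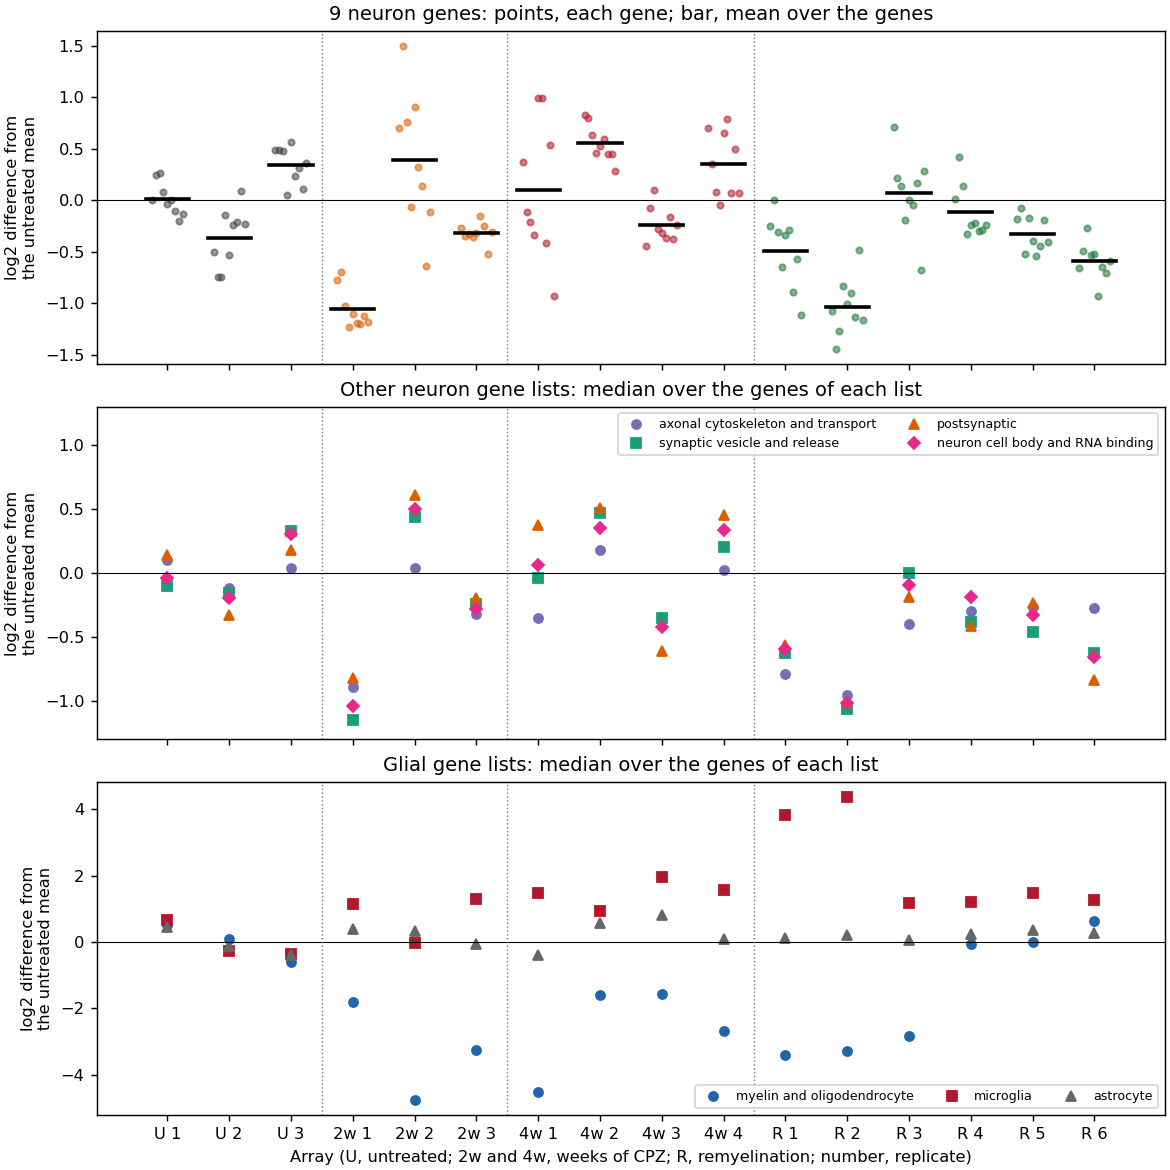
Log2 difference from the mean of the untreated arrays (vertical axis) on each of the 16 arrays (horizontal axis), for the 9 neuron genes (top; points, genes; bars, means), for the medians of 4 other neuron gene lists (middle) and of 3 glial gene lists (bottom). The first 2-week array, with a mean of -1.06, and the second remyelination array, with -1.03, are the lowest in the top panel and low in all 4 lists of the middle panel.

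The genes were also compared with each other. For each array, a gene was set against the mean of the other 8, again relative to the untreated arrays. Nefm had the largest mean shift after 2 weeks, 0.54 above the others, but with an SD of 0.65 and 2 of 3 arrays above. Nefl was above the others on all 3 arrays after 2 weeks of CPZ (mean 0.24, SD 0.16). Tubb3 was below the others on all 3 arrays after 2 weeks (-0.25, SD 0.24) and on all 4 after 4 weeks (-0.27, SD 0.23). Gap43 was below on all 3 after 2 weeks (-0.49, SD 0.59), although only 1 of them lay outside the untreated range. After 4 weeks, Syt1 (0.35, SD 0.51) and Snap25 (0.31, SD 0.51) stood above the others and Uchl1 (-0.45, SD 0.50) below them. On the first 4-week array the 9 genes spread from -0.93 to 1.00 around the untreated means, with Uchl1 the lowest, and on the second 2-week array from -0.64 to 1.49, with Gap43 the lowest and Nefm the highest. These differences are a description and were not tested.

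Genes with several probes allowed a check of the measurement. The 5 probes of Syt1 gave log2 fold changes of -0.44 to -0.29 after 2 weeks of CPZ, 0.14 to 0.54 after 4 weeks, -0.58 to -0.37 in remyelination against untreated mice and -0.99 to -0.63 against 4 weeks of CPZ. All 5 had 1 sign in each comparison, and in the last one 4 of 5 stood at an unadjusted p under 0.05 and 0 passed after adjustment. The 2 probes of Nefh had 1 sign in each comparison too, but not the same size. After 4 weeks of CPZ the brightest stood at 0.15 and the other at 0.93, and in remyelination against 4 weeks of CPZ they stood at -0.50 and -1.03. On the 4-week arrays the dimmer probe was at 1.24, 0.28, -0.30 and 0.80, against -0.30, -1.11 and 0.13 in untreated mice. Relative to the untreated mean of each probe, the dimmer probe stood furthest above the brightest one on the first and the fourth 4-week arrays and on the first remyelination array.

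**Figure D4:**
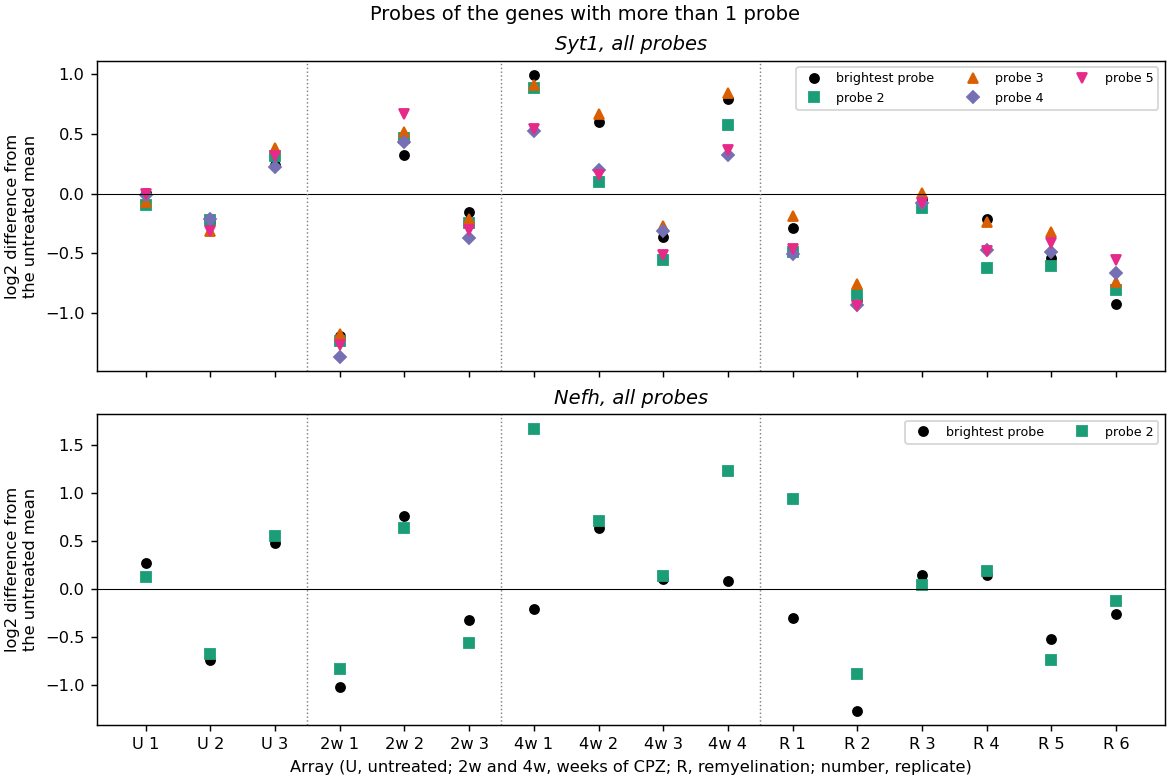
Log2 difference from the mean of the untreated arrays (vertical axis) on each of the 16 arrays (horizontal axis) for the 5 probes of Syt1 (top) and the 2 probes of Nefh (bottom). The Syt1 probes follow the same course over the arrays, while the second Nefh probe lies well above the first on the first and the fourth 4-week arrays and the first remyelination array.

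Since the genes moved together, the sequence before the transcription start was examined where it was given. RefSeq windows of 250 bases (build GRCm38.p6) were matched for 4 of the 10 genes, Ina, Tubb3, Syt1 and Uchl1. The motifs searched on both strands were the GC box GGGCGG, the CCAAT box CCAAT and the TATA box TATAAA, and they do not overlap in what they match here. The windows of Tubb3, Syt1 (the first of its 2 starts) and Uchl1, the 3 measured genes with a window, are shown to set their composition side by side. Capitals mark the motif matches on either strand.
Tubb3, chr8:123411303-123411552, plus strand: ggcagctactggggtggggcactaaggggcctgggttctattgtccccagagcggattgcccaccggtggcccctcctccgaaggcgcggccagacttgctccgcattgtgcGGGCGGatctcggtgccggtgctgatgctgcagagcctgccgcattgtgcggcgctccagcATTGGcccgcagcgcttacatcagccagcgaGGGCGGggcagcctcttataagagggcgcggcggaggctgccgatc
Syt1, chr10:109010976-109011225, minus strand: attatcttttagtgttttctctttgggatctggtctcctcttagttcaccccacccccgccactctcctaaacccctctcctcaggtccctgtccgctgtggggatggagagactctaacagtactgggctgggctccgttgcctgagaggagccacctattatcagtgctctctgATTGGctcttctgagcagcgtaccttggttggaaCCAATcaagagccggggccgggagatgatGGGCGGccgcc
Uchl1, chr5:66675871-66676120, plus strand: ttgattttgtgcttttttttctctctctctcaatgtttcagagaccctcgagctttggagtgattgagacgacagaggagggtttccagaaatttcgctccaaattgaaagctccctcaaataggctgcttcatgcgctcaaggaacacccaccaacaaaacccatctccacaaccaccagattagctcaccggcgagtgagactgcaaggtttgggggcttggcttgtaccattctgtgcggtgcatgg
The Tubb3 window had 68.0% G and C, 2 GC boxes and 1 CCAAT box. The Syt1 window had 56.4%, 1 GC box and 2 CCAAT boxes, while the window of its second start had 42.8% and none of the motifs. Uchl1 had 48.8% and none of the motifs. The GC box was found in 32.7%, the CCAAT box in 33.9% and the TATA box in 12.4% of all 32851 windows of this length, and the median share of G and C was 52.4%. None of these motifs was in all 3 windows. A match is a description of the letters and not of a bound site.

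Other genes of the axon, the synapse and the neuron cell body were followed as 4 lists of 86 genes, of which 79 were tested. By limma, 0 of the 79 were called in any of the 4 comparisons. After 2 weeks of CPZ 72 were lower and 7 higher, with 8 lower and 0 higher at an unadjusted p under 0.05, against 6.13% lower and 5.2% higher over all named genes. After 4 weeks 31 were lower and 48 higher, with 5 lower and 0 higher at that p, against 4.94% and 6.28%. In remyelination against untreated mice 77 were lower and 2 higher, with 15 lower and 0 higher at that p, against 5.02% and 7.24%. Against 4 weeks of CPZ 74 were lower and 5 higher, with 32 lower and 1 higher, against 13.1% and 6.57%. The direction turned under the recorded assignment for most of these genes in both comparisons of remyelination: 69 were higher and 10 lower against untreated mice, and 67 higher and 12 lower against 4 weeks of CPZ. After 2 weeks it was then 41 higher and 38 lower, and after 4 weeks 54 higher and 25 lower. The direction after 2 weeks also rested on 1 array, since without the first 2-week array 48 were higher and 31 lower. After 4 weeks 69 were lower with the slide as a fixed block, 57 without the second untreated array, 47 without the second 4-week array and 18 without the third untreated array. In the comparisons of remyelination, leaving out any 1 array kept 75 to 78 lower against untreated mice and 73 to 76 lower against 4 weeks of CPZ. Under quantile normalization limma called 1 of the 79 after 2 weeks of CPZ and 2 in remyelination against 4 weeks, all lower, where it called 0.216% and 0.594% of all named genes as lower. With median scaling it called 17 in the latter, all lower, against 2.52%.

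The list of axonal cytoskeleton and transport, with 24 tested genes, had medians of -0.40 after 2 weeks, -0.11 after 4 weeks, -0.50 in remyelination against untreated mice and -0.41 against 4 weeks of CPZ. Its lowest gene at 4 weeks was Mapk8ip1, a scaffold for motor proteins and stress kinases (-1.05, standard error 0.49, adjusted p = 0.532), and its highest was Nrn1, a neuritin (0.56, standard error 0.44, adjusted p = 0.784). The list of synaptic vesicle and release, also with 24 tested, had medians of -0.33, 0.03, -0.48 and -0.59. Here Sv2a, a vesicle glycoprotein, was the lowest at 4 weeks (-0.88, standard error 0.38, adjusted p = 0.468). Sv2a was 2.38 ± 0.16 in untreated mice (SD, n = 3) and 1.49 ± 0.46 after 4 weeks of CPZ (n = 4). Vesicle genes thus lay on both sides of 0 at 4 weeks, 13 higher and 11 lower, where Snap25 and Syt1 were both higher in mean.

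The postsynaptic list, with 17 tested genes of receptors and scaffolds, had medians of -0.16, 0.18, -0.57 and -0.79 in the same order, and 16 of 17 were higher after 4 weeks of CPZ. Its lowest and highest genes there were the glutamate receptor subunit Grin2b (-0.15, standard error 0.55) and the scaffold Shank2 (0.41, standard error 0.32). All 17 were lower in both comparisons of remyelination, and against 4 weeks of CPZ 11 of them stood at an unadjusted p under 0.05, where 13.1% of all named genes were lower at that p. All 17 were higher in both under the recorded assignment, with medians of 0.56 and 0.62. The list of neuron cell body and RNA binding, with 14 tested, had medians of -0.26, 0.12, -0.48 and -0.52. Its lowest at 4 weeks was the noncoding RNA Meg3 (-0.82, standard error 1.45), whose SD was 2.84 in untreated mice (n = 3), and its highest Vsnl1, a calcium sensor of neurons (0.32, standard error 0.42). Without the first 2-week array, the 2-week medians of the axonal, vesicle, postsynaptic and cell body lists went to -0.17, 0.10, 0.22 and 0.19. Their 4-week medians could turn as well. With the slide as a fixed block the vesicle, postsynaptic and cell body lists turned to -0.34, -0.21 and -0.34, and the axonal list stayed below 0, at -0.31. Quantile normalization put the vesicle list at -0.03, and the recorded assignment put the axonal list at 0.09 and the postsynaptic list at -0.07. In the same comparisons the medians over all named genes were -0.02, 0.03, -0.07 and -0.05.

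The 5 named genes outside the 9 whose pattern over the 16 arrays was closest to the mean of the 9 were found by Pearson's r. They were Tcf25 (r = 0.980), Ywhag (0.975), Atrnl1 (0.973), Snrpn (0.971) and Septin5 (0.971). None of them was in a list used here. Across 5 other ways of processing, r stayed between 0.960 and 0.983 for Atrnl1, Snrpn and Septin5, and fell as low as 0.911 for Tcf25 and 0.932 for Ywhag, which under quantile normalization ranked 141 and 68 among all genes. On the first 2-week array the 5 genes stood at -0.63 to -0.98, and on the second remyelination array all 5 were at -0.62 or below, these being the 2 arrays on which the 9 genes were lowest. The 5 genes were chosen for their likeness over the same arrays, so these low values are not a separate observation.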

How the data were processed

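Each of 16 corpus callosum RNA samples was hybridised to a single-colour Agilent 4x44K mouse array with 41174 probes. Spot intensity was deposited in the form Feature Extraction gave it (11.0.1.1 per the labels), background-subtracted and detrended within an array but not scaled between arrays. The authors also deposited log2 values with each array aligned at its 75th percentile and each probe centred on its untreated median. Scanner arrays were assigned to samples by matching them to the columns of the latter table. Other deposited columns hold the probe accession, position and flags. Accessions were matched to RefSeq symbols for 66.7% of probes. Names only were used, since the coordinates of the files and of the table are of different builds. All columns belonged to a sample of the series.

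Control spots and outlier spots (48 to 126 per array) were left out. Replicate spots were averaged and put on the log2 scale without a pseudocount, after which each array's 75th percentile was set to 0. Probes entered the test if at least 1 group in the model had them well above background on all its arrays, and each gene was represented by its brightest such probe. The CPZ comparisons were fitted on 10 arrays with 7 residual degrees of freedom, and those of remyelination on all 16 with 12, in limma 3.58.1 with statmod 1.5.0 and R 4.3.3. Genes were called at a 2-fold change and an adjusted p under 0.05 (Benjamini-Hochberg, over all probes). The method was tested on simulated data. The test of the methods was a one-way ANOVA adjusted over probes, with Tukey's comparison of groups, run as an alternative. Other alternatives were normexp background correction, quantile and median scaling, the authors' processed values, the recorded assignment, 2 filters, the slide as a fixed or random block, the replicate block, array weights, the mean over probes, other sets of arrays and leaving out each array. Normexp used the median spot signal, as no mean signal column was given.

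The 10 genes and all gene lists were chosen with earlier results of these data known. Named genes are the 10 listed genes, the lowest and highest of each neuron list at 4 weeks of CPZ, those called in it in any comparison, the markers Slc17a7, Gad1, Ppp1r1b, Mog and Ttr, and the 5 genes closest in pattern. Atf3 was named after its values were seen. One gene that this rule names is not reported here. The lists covered axonal cytoskeleton and transport, synaptic vesicle and release, postsynaptic genes, neuron cell body genes, 4 kinds of neuron, axon injury and activity responses, and 6 other cell types. The deviations of same-numbered arrays of different groups had correlations from -0.81 to 0.34. Those of untreated with 4-week arrays were -0.81, -0.75 and -0.76, and all others lay between -0.31 and 0.34. Same-numbered arrays thus did not deviate in the same direction, and numbers were not taken as pairs. The cause of the negative values was not tested.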

Additional observations from a re-analysis of the deposited data

Results flagged for a closer look

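The level of Gap43 on the third 4-week CPZ array was 1.04, while the other 3 arrays of the group stood between 1.86 and 1.95. Its gap to the nearest of them was 0.90 of the range of the group, above the critical value of 0.829 for 4 arrays. In all, 30 groups were examined for such an array and 1 was found, where chance gives about 1 in 20. Nefl, Snap25 and Syt1 were also lowest in their group on this array, at 4.05, 1.26 and 6.21, without passing that limit.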

How the results depend on the processing

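Over 32 alternatives, 1026 log2 fold changes of the 9 genes were recomputed: 959 kept their sign and side of the threshold, 62 turned and 5 became calls. Without the recorded assignment, 33 turned. The calls were all in remyelination against 4 weeks of CPZ: 3 with median scaling (Gap43, Snap25, Syt1), 1 with array weights (Syt1, -1.03, where 0.479% of all named genes were called as lower), and 0 to 1 on leaving out an array. With array weights, Gap43 had an adjusted p under 0.05 below 2-fold after 2 weeks (-0.61, limma adjusted p = 0.00637) and in both remyelination comparisons (-0.47 and -0.74). In these comparisons, array weights put 5828, 4447 and 3222 named genes at an unadjusted p under 0.05, against 1572, 1714 and 2752 without them. In remyelination against 4 weeks of CPZ, Gap43 also passed below 2-fold without the first untreated array (-0.76, limma adjusted p = 0.0392). The same held without the third 4-week array (-0.98, limma adjusted p = 0.0241). With the replicate block, 0 of the 9 genes were called in all 4 comparisons, with a lowest limma adjusted p of 0.779, 0.969, 0.389 and 0.413 and medians of -0.34, 0.20, -0.45 and -0.51. The pairing by number thus changed no call among the 9 genes, of which 0 were called without it. At an unadjusted p under 0.05 it left 0, 0, 0 and 1 of them, against 1, 0, 1 and 3. Over all named genes, calls went from 33, 28, 149 and 0 to 0, 0, 17 and 0. Of the other lists, quantile normalization gave 1 call after 2 weeks and 2 in remyelination against 4 weeks, and median scaling 17 in the latter. The cause of these changes was not tested.

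Under the recorded assignment, the mean of the 9 genes on the remyelination arrays was 0.616. After 2 weeks of CPZ, Nefh turned to 0.352, Tubb3 to 0.121, Snap25 to 0.125, Stmn2 to 0.152, Gap43 to 0.158 and Uchl1 to 0.187. After 4 weeks, Nefm turned to -0.176, Nefh to -0.157, Tubb3 to 0.227, Stmn2 to 0.151 and Uchl1 to 0.181, and among other genes Mapk8ip1 to 0.269, Nrn1 to -0.278, Sv2a to 0.283, Grin2b to 0.277, Shank2 to -0.237 and Meg3 to 1.902. In remyelination against untreated mice, Nefl turned to 0.858, Nefm to 0.723, Nefh to 0.542, Tubb3 to 0.363, Snap25 to 0.942, Syt1 to 0.842, Stmn2 to 0.438, Gap43 to 0.547 and Uchl1 to 0.288. Against 4 weeks of CPZ, Nefl turned to 0.826, Nefm to 0.899, Nefh to 0.699, Tubb3 to 0.136, Snap25 to 0.797, Syt1 to 0.755, Stmn2 to 0.288, Gap43 to 0.049 and Uchl1 to 0.106.

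Nefm after 2 weeks turned to -0.013 with median scaling, -0.123 with the slide as a fixed block and -0.442 with array weights. After 4 weeks, the fixed slide block turned Nefl to -0.139, Nefm to -0.397, Nefh to -0.273, Snap25 to -0.005 and Vsnl1 to -0.155, and the random slide block Nefm to -0.017 and Nefh to -0.020. Median scaling turned Tubb3 to 0.070 and Stmn2 to 0.104, normexp turned Stmn2 to 0.059, and Grin2b went to 0.239 with array weights and 0.157 with the mean over probes.

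On leaving out 1 array, the share of all named genes at an unadjusted p under 0.05 ran from 8.49 to 12.6% after 2 weeks, 6.79 to 13.6% after 4 weeks, 8.58 to 13.98% in remyelination against untreated mice and 12.2 to 23.4% against 4 weeks of CPZ, and a sign could turn. After 2 weeks of CPZ the range was -0.672 to 0.218 for Nefh, -0.521 to 0.219 for Nefl, -0.520 to 0.575 for Nefm, -0.707 to 0.295 for Snap25 and -0.671 to 0.086 for Syt1. After 4 weeks it was -0.219 to 0.391 for Nefh, -0.128 to 0.489 for Nefm, -0.167 to 0.141 for Stmn2, -0.218 to 0.048 for Tubb3, -0.364 to 0.041 for Uchl1, -0.366 to 0.382 for Grin2b and -2.457 to 0.072 for Meg3. In remyelination against untreated mice it was -0.487 to 0.0084 for Nefl and -0.599 to 0.018 for Nefm. Precision is limited by how many arrays each group had, and single values of genes with a wide spread rest on 1 or 2 arrays.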

Other observations

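Genes of the response of neurons to axon injury were followed as a list of 13, all tested, and limma called 0 of them in any comparison. After 2 weeks of CPZ 3 of 13 were higher at an unadjusted p under 0.05, after 4 weeks 1, and in remyelination against untreated mice 1, where 5.2%, 6.28% and 7.24% of all named genes were higher at that p. Atf3, a transcription factor that injured neurons and stressed cells switch on, had log2 fold changes of 3.07 after 2 weeks, 1.81 after 4 weeks and 2.54 in remyelination against untreated mice, with adjusted p of 0.101, 0.316 and 0.136 by limma; it was chosen after its values were seen. The median of the list was 0.01, 0.04 and -0.16 in these comparisons. The list of 10 genes switched on by neuronal activity, such as Fos and Arc, had medians of -0.14, 0.05 and -0.13, with 0 of 10 called and 0 at an unadjusted p under 0.05. Of the other cell types, the median of the astrocyte list was 0.10 after 2 weeks, 0.18 after 4 weeks and 0.19 in remyelination, that of the choroid plexus list 0.06, 0.71 and 0.07, that of the endothelial list -0.05, -0.09 and -0.41, and that of the red blood cell list -0.15, 0.27 and -0.09. The median of the microglia list was 0.76, 1.67 and 2.18.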
